A study of Oryctolagus cuniculus with 17 samples.

Results

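The vessels of the lung are lined by endothelial cells, and a small set of genes is used across organs to recognise these cells. Such genes encode the adhesion molecules that hold neighbouring cells together, a transcription factor that keeps the lineage program running, receptors on the vessel surface and the clotting protein stored in these cells. In the newborn lung the capillary bed grows with the alveoli, and high oxygen is known to injure it. Of 10 such pan-endothelial identity genes chosen by name, 8 had an entry among the 13827 entries of the count table: PECAM1, CDH5, VWF, EMCN, ROBO4, S1PR1, ERG and CLEC14A. CLDN5 and ESAM are not analysed here. All 8 were among the 13142 genes with enough counts to be tested, and none shared its locus with another entry or overlapped one. The 8 genes and the gene lists below were chosen with earlier results of these data known. Their counts beside the shares over all tested genes are therefore descriptions and not tests.

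RNA was measured in total right lung homogenate of New Zealand White rabbit pups delivered preterm, on day 28 of gestation, and kept at 95% O2 (hyperoxia, H) or 21% O2 (normoxia, N) until postnatal day 3, 5 or 7 (T3, T5, T7). All pups, controls included, were preterm, housed in incubators and fed a milk replacer. There were 3 samples per group and 2 in HT5, 17 in all, and neither litters nor pooling are given, so p-values measure the spread between these samples. Homogenate holds every cell type of the lung, and fewer endothelial cells and less of a transcript per cell cannot be told apart in it. Totals ran from 13123731 to 18111086 counts per sample, with each locus counted once. Levels are given as CPM (counts scaled to a common library total, with TMM factors that ran from 0.958 to 1.05), which compare samples for 1 gene; the table gives no transcript lengths, so levels were not compared between genes. "Called" means an adjusted p under 0.01 in the quasi-likelihood test of edgeR, and log2FC is the log2 ratio of hyperoxia to normoxia with its standard error (SE).

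By day 7 in hyperoxia the 8 genes had divided. CLEC14A, CDH5, ERG, ROBO4 and EMCN were lower, at 20.5%, 25.8%, 29.8%, 41.1% and 53.0% of normoxia, while PECAM1, S1PR1 and VWF were not called and had 95% intervals that lay above a log2FC of -1. The 5 genes called lower are named lost below and the other 3 kept. Over all tested genes, 16.9% were called lower and 16.7% higher on day 7. In the 5 lost genes every HT7 sample lay below every NT7 sample, as did 27.2% of all tested genes. The median log2FC of the 8 genes was -0.02 on day 3, -0.52 on day 5 and -1.10 on day 7, against 0.00, -0.02 and -0.01 over all tested genes.

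**Figure D1:**
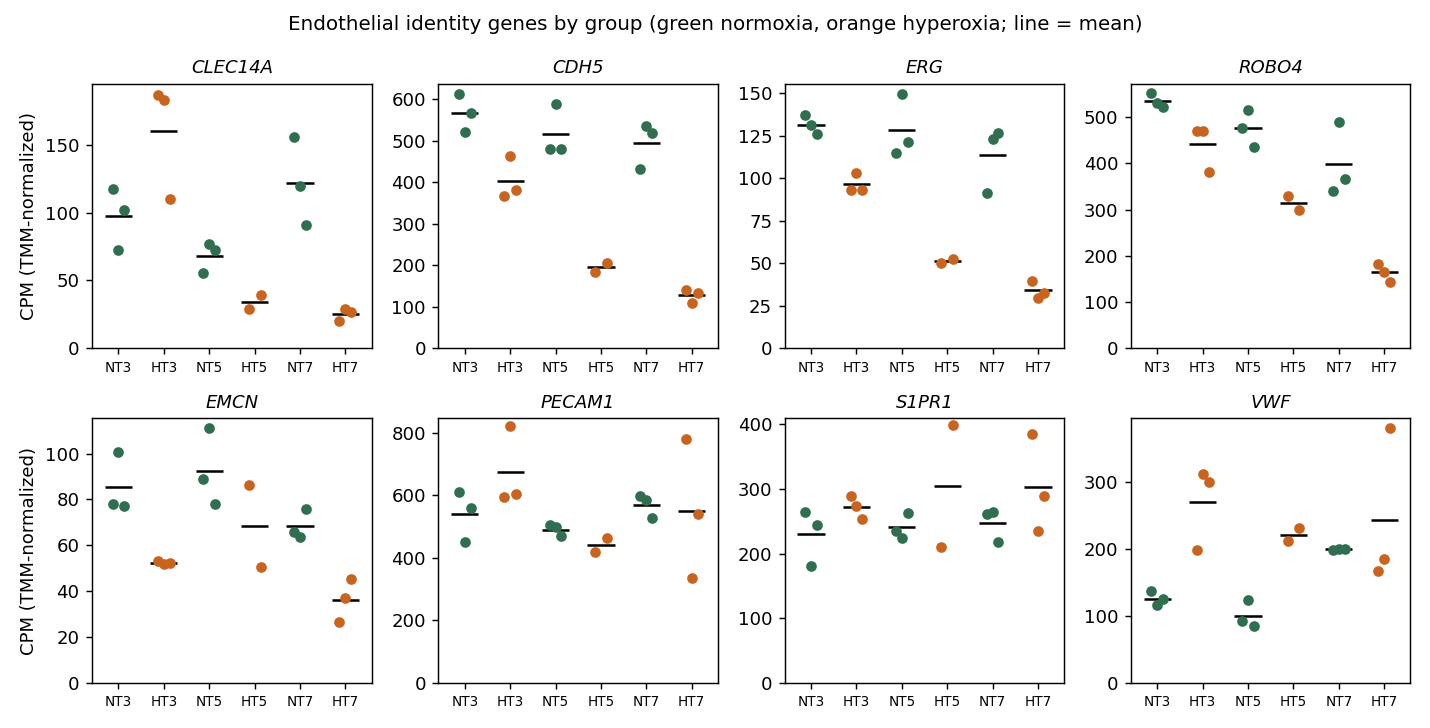
Level of each of the 8 genes in every sample, in CPM on axes that start at 0, by postnatal day for normoxia and hyperoxia, with the group mean as a line. CDH5 and ERG step down from day 3 to day 7 in hyperoxia, CLEC14A is low on days 5 and 7, and PECAM1 and S1PR1 overlap between the conditions on day 7.

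CDH5 (VE-cadherin, ENSOCUG00000010192) is the cadherin of endothelial adherens junctions and is among the genes most restricted to this cell type. The table lists it on the plus strand of chromosome 5 from 21872910 to 21900934, and OryCun2.0 is the build named in the submitters' processing notes. Its NT3 samples had 612, 521 and 567 CPM and its HT3 samples 366, 462 and 381 CPM. On day 5 the NT5 samples had 480, 587 and 480 CPM and the HT5 samples 185 and 205 CPM. On day 7 the NT7 samples had 432, 534 and 518 CPM and the HT7 samples 140, 109 and 133 CPM. Hyperoxia lay below normoxia without overlap on all 3 days, and the distance widened each day. The log2FC was -0.49 (SE 0.13, adjusted p = 0.0909) on day 3, which is not called, -1.41 (SE 0.15, adjusted p = 6.23e-05) on day 5 and -1.96 (SE 0.14, adjusted p = 3.92e-07) on day 7. In order of the group means, NT3, NT5 and NT7 overlapped with each other, HT3 came next and overlapped with NT7, and HT5 and HT7 followed without overlap.

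PECAM1 (CD31, ENSOCUG00000015220, chromosome 19 from 49195665 to 49263183, minus strand) is an adhesion molecule that sits at the same cell borders, and platelets and several leukocytes carry it too. It had 610, 450 and 560 CPM in NT3 and 595, 822 and 603 CPM in HT3. It had 503, 498 and 470 CPM in NT5 and 419 and 463 CPM in HT5. In NT7 it had 598, 585 and 528 CPM, and in HT7 779, 334 and 540 CPM. HT5 lay below NT5 without overlap, the NT7 samples lay close together, and the HT7 samples lay above, below and within their range. The log2FC was 0.32 (SE 0.22, adjusted p = 0.526), -0.15 (SE 0.25, adjusted p = 0.672) and -0.05 (SE 0.22, adjusted p = 0.870) on days 3, 5 and 7, and the 95% interval on day 7 ran from -0.52 to 0.43. Without HT7 replicate 1 the day 7 value was -0.38, and without HT7 replicate 2 it was 0.22.

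ERG (ENSOCUG00000000104) is an ETS-family transcription factor that keeps endothelial genes switched on, CDH5 among its known targets. It lies on the unplaced scaffold GL018727 from 2383729 to 2583283, on the minus strand. Its samples had 137, 131 and 126 CPM in NT3 and 93.0, 103 and 93.3 CPM in HT3. They had 115, 149.7 and 121 CPM in NT5 and 50.1 and 52.5 CPM in HT5. On day 7 they had 91.4, 123 and 127 CPM in NT7 and 39.7, 29.6 and 32.5 CPM in HT7. Here too hyperoxia lay below normoxia without overlap on each day. The log2FC was -0.44 (SE 0.14, adjusted p = 0.142), -1.32 (SE 0.16, adjusted p = 0.00011) and -1.75 (SE 0.14, adjusted p = 1.44e-06) on days 3, 5 and 7. Over the 17 samples, ERG was the gene whose log2 CPM was most like that of CDH5 among all tested genes, and CDH5 the gene most like ERG (Pearson r = 0.99). Much of that likeness is shared group differences. When each group's mean was taken out, the remaining deviations of the pair still had r = 0.85 over the 17 samples, which share library preparation and depth.

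CLEC14A (ENSOCUG00000008676, chromosome 17 from 57938336 to 57939784, minus strand) is a C-type lectin of the endothelial surface that binds multimerin 2 and takes part in vessel sprouting. It had 118, 72.3 and 102 CPM in NT3, and 187, 183 and 109.7 CPM in HT3. It had 55.1, 77.1 and 72.1 CPM in NT5, and 29.1 and 39.6 CPM in HT5. In NT7 it had 156, 119.9 and 90.5 CPM, and in HT7 19.9, 28.8 and 26.5 CPM. Of the 6 groups, HT3 had the highest mean and HT7 the lowest. The log2FC was 0.72 (SE 0.25, adjusted p = 0.180) on day 3, -0.99 (SE 0.29, adjusted p = 0.0186) on day 5 and -2.28 (SE 0.26, adjusted p = 1.29e-05) on day 7, a level 4.87-fold lower. Among the 8 genes CLEC14A alone also met the study's fold criterion on day 7, a log2FC below -2, as did 2.84% of all tested genes.

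ROBO4 (ENSOCUG00000002647, chromosome 1 from 92346473 to 92361517, plus strand) is a roundabout-family receptor found on endothelium, where it steadies vessel barriers. NT3 had 552, 531 and 521 CPM and HT3 470.2, 471 and 382 CPM. NT5 had 476, 517 and 435 CPM and HT5 330.2 and 299 CPM. NT7 had 339.9, 489 and 367 CPM and HT7 183, 164 and 144 CPM. Hyperoxia was below normoxia without overlap on all 3 days, with the log2FC at -0.28 (SE 0.14, adjusted p = 0.350), -0.60 (SE 0.16, adjusted p = 0.0101) and -1.28 (SE 0.14, adjusted p = 8.14e-06). The day 5 value missed the threshold in edgeR and was called by DESeq2.

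EMCN (endomucin, ENSOCUG00000007231, chromosome 15 from 49347866 to 49458652, plus strand) is a sialomucin of capillary and venous endothelium. Its levels were 77.9, 101 and 77.1 CPM in NT3 and 53.0, 51.8 and 52.1 CPM in HT3. They were 88.8, 111 and 77.9 CPM in NT5 and 86.3 and 50.6 CPM in HT5. On day 7 they were 65.8, 63.7 and 75.9 CPM in NT7 and 26.6, 36.9 and 45.3 CPM in HT7. HT3 and HT7 lay below their normoxic groups, whereas 1 of the 2 HT5 samples lay within the range of NT5. The log2FC was -0.71 (SE 0.21, adjusted p = 0.1196), -0.44 (SE 0.23, adjusted p = 0.164) and -0.92 (SE 0.21, adjusted p = 0.00236). The day 5 value was -0.87 without HT5 replicate 1 and -0.12 without HT5 replicate 2. The day 7 call was lost without HT7 replicate 1 (adjusted p = 0.0132) and without NT7 replicate 3 (adjusted p = 0.0112), and no other of the 5 lost genes lost its call when a sample was left out.

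S1PR1 (ENSOCUG00000015574, chromosome 13 from 62900510 to 62901828, minus strand) is the main endothelial receptor for sphingosine 1-phosphate, a blood lipid that tightens the vessel barrier. It had 265, 180.5 and 245 CPM in NT3 and 289, 274 and 254 CPM in HT3. It had 235, 224 and 263 CPM in NT5 and 209.8 and 398 CPM in HT5. It had 262, 265 and 218 CPM in NT7 and 385, 235 and 289 CPM in HT7. The groups overlapped on each day. The log2FC was 0.24 (SE 0.22, adjusted p = 0.641), 0.34 (SE 0.24, adjusted p = 0.299) and 0.29 (SE 0.22, adjusted p = 0.290), with a 95% interval from -0.17 to 0.75 on day 7. The day 7 value was 0.08 without HT7 replicate 1, and the day 3 value was 0.09 without NT3 replicate 2. On day 5 the direction rested on HT5 replicate 2, without which the log2FC was -0.22.

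VWF (von Willebrand factor, ENSOCUG00000006783, chromosome 8 from 32066187 to 32221565, minus strand) is the large adhesive protein that endothelial cells store in Weibel-Palade bodies and that binds platelets. It had 137, 115 and 125 CPM in NT3 and 198, 312 and 299 CPM in HT3. It had 92.9, 123 and 84.2 CPM in NT5 and 211 and 232 CPM in HT5. It had 198, 199.9 and 199 CPM in NT7 and 167, 184 and 380 CPM in HT7. VWF in hyperoxia was above normoxia without overlap on days 3 and 5, whereas on day 7 only 1 HT7 sample lay above NT7. The log2FC was 1.10 (SE 0.26, adjusted p = 0.0560), 1.14 (SE 0.28, adjusted p = 0.00747) and 0.29 (SE 0.25, adjusted p = 0.367), and the day 7 interval ran from -0.25 to 0.83. Without HT7 replicate 3 the day 7 value was -0.17.

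Calls were absent on day 3, while several groups already lay apart. No gene of the 8 was called on that day by edgeR, against 0.107% of all tested genes called lower and 0.0989% called higher. At an unadjusted p under 0.05 there were 5 of the 8 (CDH5, VWF, EMCN, ERG and CLEC14A), against 15.3% of all tested genes. DESeq2 called VWF alone. CDH5, EMCN, ROBO4 and ERG lay below normoxia without overlap, as did 13.9% of all tested genes, and VWF lay above it, as did 12.8%.

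On day 5 CDH5 and ERG were called lower, against 7.62% of all tested genes, and VWF was called higher, against 8.56%. PECAM1, CDH5, ROBO4, ERG and CLEC14A lay below normoxia without overlap, as did 29.2% of all tested genes, and VWF lay above it, as did 26.5%. At an adjusted p under 0.05, ROBO4 and CLEC14A joined, 5 of the 8 against 31.3% of all tested genes. None of the 8 met the study's fold criterion, against 0.761% of all tested genes lower by it. The CDH5 and ERG calls held without each of the 5 day 5 samples in turn. That of VWF was lost without HT5 replicate 1 (adjusted p = 0.0176), HT5 replicate 2 (0.0765), NT5 replicate 1 (0.0223) or NT5 replicate 3 (0.0317). With the 5 samples of day 5 fitted alone, none of the 3 passed in edgeR, with adjusted p = 0.0142 for CDH5, 0.0143 for ERG and 0.0186 for VWF.

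**Figure D2:**
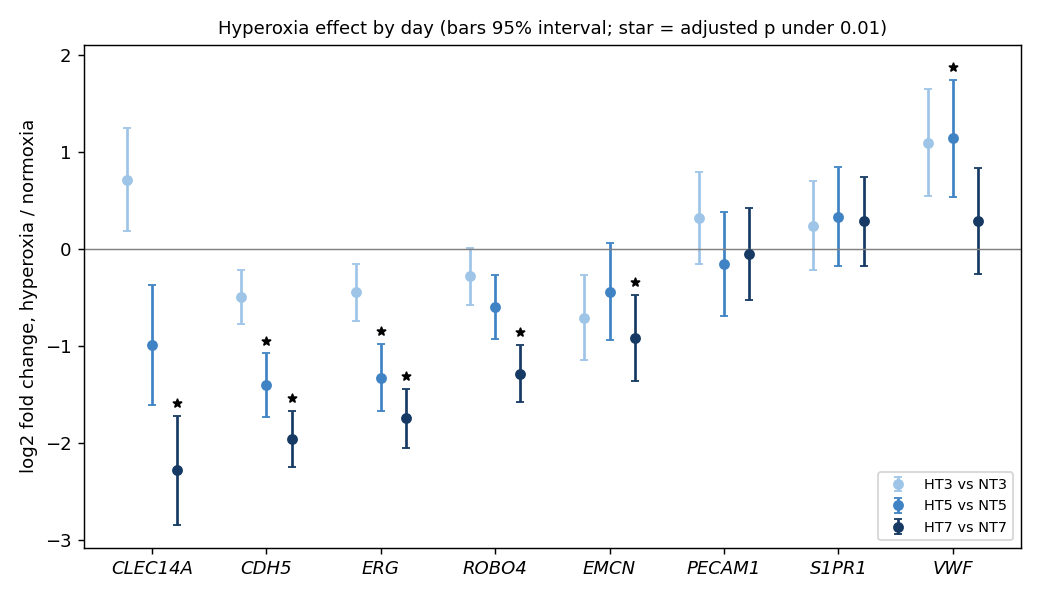
Log2 ratio of hyperoxia to normoxia for each gene on days 3, 5 and 7, with 95% intervals from the edgeR fit; stars mark an adjusted p under 0.01 and the line at 0 marks no difference. CDH5, ERG, ROBO4 and CLEC14A move down over the days, and the intervals of PECAM1 and S1PR1 cross 0 on each day.

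Whether the hyperoxia difference itself changed between days 3 and 7 was tested as a contrast of both differences. It was called for CLEC14A, whose log2FC shifted by -3.00 (SE 0.36, adjusted p = 0.000351), CDH5 (-1.47, SE 0.19, adjusted p = 0.000495), ERG (-1.30, SE 0.20, adjusted p = 0.00137) and ROBO4 (-1.01, SE 0.19, adjusted p = 0.0039). Of all tested genes 4.68% shifted down in this contrast, and 1.02% did so by more than 2, CLEC14A among them. EMCN, with a log2FC of -0.71 on day 3 that was not called, had a shift of -0.21 (adjusted p = 0.646), which ran from -0.40 without HT7 replicate 3 to -0.03 without HT7 replicate 1. The shift of VWF was -0.81 (SE 0.36, unadjusted p = 0.0406 in edgeR, not called), and it became -1.28 (adjusted p = 0.00761) without HT7 replicate 3. The ROBO4 call was lost without any one of 5 samples, HT3 replicate 1, HT3 replicate 2, HT7 replicate 3, NT3 replicate 2 or NT3 replicate 3, with adjusted p-values up to 0.0133. PECAM1 had -0.37 (adjusted p = 0.433), from -0.70 without HT7 replicate 1 to -0.10 without HT7 replicate 2, and S1PR1 0.05 (adjusted p = 0.934).

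The days were then compared within each condition. From HT3 to HT7, CLEC14A fell by 2.67 on the log2 scale (adjusted p = 1.08e-05), CDH5 by 1.66 (adjusted p = 4.16e-06), ERG by 1.51 (adjusted p = 8.43e-06) and ROBO4 by 1.43 (adjusted p = 9.44e-06), against 15.1% of all tested genes called lower. CLEC14A alone of the 8 exceeded 2, as did 2.11% of all tested genes. EMCN had a log2FC of -0.53 (adjusted p = 0.0519). From NT3 to NT7 no gene of the 8, and none of the 13142 tested, was called by edgeR, while 2 of the 8 and 6.27% of all tested genes had an unadjusted p under 0.05, and DESeq2 called none of the 8. Those 2 were VWF, with a log2FC of 0.66 (adjusted p = 0.699), and ROBO4, with -0.42 (adjusted p = 0.602). The HT and NT groups are both shared between these contrasts and those above.

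Each gene was also set against PECAM1 as the ratio of their counts in the same library, which needs no library scaling. The mean log2 difference of the ratio between hyperoxia and normoxia over days 5 and 7 was -1.54 for CDH5, -1.49 for CLEC14A, -1.39 for ERG, -0.79 for ROBO4 and -0.57 for EMCN. Since the lost and kept genes were named from the same day 7 samples, the ratios describe sizes and are given with no test. The EMCN value ran from -0.79 without HT5 replicate 1 to -0.32 without HT7 replicate 1, and its ratios in HT7 and NT7 overlapped. On day 7 the CDH5 to PECAM1 ratio was 0.722 to 0.983 in NT7 and 0.180 to 0.325 in HT7, with no overlap. For S1PR1 the difference was 0.41, and it was 0.21 without HT5 replicate 2. The difference for VWF was 0.82, from 0.64 without HT7 replicate 3 to 1.07 without HT7 replicate 1, with ratios of 0.179 to 0.247 in NT5, 0.500 to 0.503 in HT5, 0.331 to 0.377 in NT7 and 0.214 to 0.704 in HT7. All 7 ratios use the same PECAM1 counts.

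**Figure D3:**
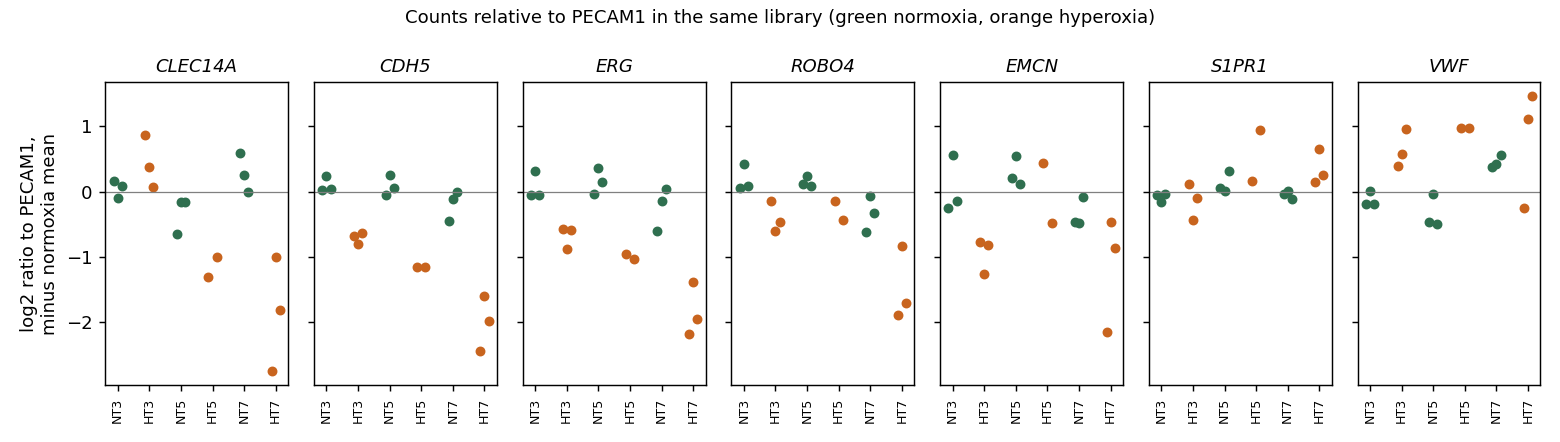
Ratio of each of 7 genes to PECAM1 in every sample, by group, as log2 ratio minus the mean of the normoxia samples (green normoxia, orange hyperoxia, line at that mean). On day 7 the HT7 points of CDH5, ROBO4, ERG and CLEC14A lie below the NT7 points, and those of S1PR1 lie above them.

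Set against CDH5 in the same way, and again with no test, the mean log2 difference was 2.35 for VWF, 1.95 for S1PR1 and 1.54 for PECAM1. It was 0.97 for EMCN, 0.75 for ROBO4, 0.15 for ERG and 0.05 for CLEC14A.

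PECAM1 and VWF RNA can come from other cells of the homogenate, and markers of such cells were summed. On day 3 the sum of 8 neutrophil markers was 316 to 816 CPM in NT3 and 1214 to 1813 CPM in HT3, without overlap. None of the 8 was called by edgeR, 7 had an unadjusted p under 0.05, against 15.3% of all tested genes, and DESeq2 called 1. On day 5 that sum was 162 to 756 CPM in NT5 and 734 to 1080 CPM in HT5, and that of 10 macrophage markers was 912 to 1747 CPM in NT5 and 1772 to 1997 CPM in HT5. On day 7 the summed level of 10 macrophage markers was 1230 to 1445 CPM in NT7 and 1991 to 2542 CPM in HT7, without overlap, but the median log2FC of the 10 was -0.02, with CD68 called higher at 1.21 and MARCO lower at -2.19. CD68 had the highest total count of the 10. That of the neutrophil markers was 1082 to 1181 CPM in NT7 and 1132 to 3542 CPM in HT7, with a median log2FC of 0.91. No neutrophil marker was called by edgeR, 3 of 8 had an unadjusted p under 0.05, against 53.9% of all tested genes, and DESeq2 called 1. The sum of 7 platelet and megakaryocyte markers, SELP included, was 61.8 to 86.6 CPM in NT3 and 56.4 to 76.3 CPM in HT3. It was 75.6 to 116 CPM in NT5 and 70.5 to 102 CPM in HT5. On day 7 it was 65.6 to 96.5 CPM in NT7 and 103 to 182 CPM in HT7. There TUBB1 was lower at -1.85 and SELP higher. SELP itself, which is also an endothelial gene, had 3.85 to 12.8 CPM in NT7 and 29.1 to 104 CPM in HT7, and the median log2FC of the 7 was -0.03. Their part in the PECAM1 and VWF levels was not tested. Of 8 lymphocyte markers 3 were lower, against 16.9% of all tested genes, from MS4A1 at -2.96 to CD79B at -2.36.

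Of 32 further genes used to recognise endothelium throughout the body, 25 were tested, and they moved mostly with the lost genes. On day 7, 23 were called lower, against 16.9% of all tested genes, and 1 higher, with a median log2FC of -1.43. CD93, a surface receptor of angiogenic vessels, was lowest at -3.16 (adjusted p = 8.96e-07), and TEK, the angiopoietin receptor, stood at -2.79 (adjusted p = 8.91e-07). TIE1, its co-receptor, was called on all 3 days, at -0.87 (adjusted p = 0.00316), -1.63 (adjusted p = 1.5e-05) and -2.26 (adjusted p = 1.43e-07). FLT1, a receptor that binds and sequesters VEGF, was the one called higher, at 1.10 (adjusted p = 0.00207). ADGRL4, named after its values were seen, had -0.15 (adjusted p = 0.474) and was the single gene of the 25 not called.

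The junction partners of CDH5 and PECAM1 include catenins, tight junction proteins and JAM adhesion molecules, many of which epithelium also uses. Of 13 tested, 7 were called lower on day 5, against 7.62% of all tested genes, and 10 on day 7, against 16.9%, none higher, with a median of -0.67 on day 7. JUP (plakoglobin), which links VE-cadherin to the cytoskeleton, had the lowest value at -1.27 (adjusted p = 3.93e-05). CTNNB1 (beta-catenin), in the same complex, had the smallest change among those called, at -0.39 (adjusted p = 0.00232).

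ERG belongs to the ETS factors, and 11 others were tested. Some of these, FLI1 included, are also counted among the further pan-endothelial genes. On day 7, 5 were lower and 2 higher, against 16.9% and 16.7% of all tested genes. ETS1, which acts in vessel growth and is also high in lymphocytes, was called on all 3 days at -0.97 (adjusted p = 0.00177), -1.35 (adjusted p = 6.23e-05) and -1.45 (adjusted p = 2.58e-06). FLI1, the close relative of ERG, had -1.02 (adjusted p = 0.00028) on day 7, a change smaller in size than the -1.75 of ERG; that difference was not tested. ETS2 was higher by 1.09 (adjusted p = 0.00168).

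Around ROBO4 and CLEC14A, 10 genes of the slit, roundabout and multimerin systems were tested, of which 5 were lower on day 5 and 7 on day 7, against 7.62% and 16.9% of all tested genes. MMRN2 and CD93 are counted here and also among the further pan-endothelial genes. The slit ligands SLIT2 and SLIT3 had a log2FC of -1.71 (adjusted p = 2.58e-06) and -1.37 (adjusted p = 5.84e-05) on day 7. MMRN2, the matrix ligand of both CLEC14A and CD93, had -1.54 (adjusted p = 0.000114). ROBO4, CLEC14A, SLIT2, SLIT3 and MMRN2 were thus all lower on day 7, and binding between their products was not measured.

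Of 11 genes of the sphingosine 1-phosphate pathway tested, 5 were lower and 1 higher on day 7, against 16.9% and 16.7% of all tested genes, while the receptor S1PR1 was kept. SPHK1, a kinase that makes the lipid, rose by 3.85 (SE 0.59, adjusted p = 0.000115), after 3.01 (adjusted p = 0.00208) on day 5. SPNS2, the endothelial exporter of the lipid, had -1.51 (adjusted p = 1.66e-05), and S1PR3, another receptor, had -1.21 (adjusted p = 0.00576). PLPP3, a surface phosphatase that degrades it, had -1.73 (adjusted p = 0.000166).

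Of 7 tested partners of VWF, 2 were called higher on day 7, against 16.7% of all tested genes. Only these 2 are named, and the list is not reported in full. ANGPT2, the TEK ligand stored with VWF in Weibel-Palade bodies, was called on all 3 days at 2.38 (adjusted p = 0.000188), 4.24 (adjusted p = 2.28e-07) and 3.54 (adjusted p = 1.73e-07). SELP (P-selectin), a leukocyte adhesion molecule of the same granules and of platelets, was at 1.10 (adjusted p = 0.315) on day 3, 3.30 (adjusted p = 0.000944) on day 5 and 3.07 (adjusted p = 0.00025) on day 7. The cleaving enzyme ADAMTS13 was below the count filter.

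**Figure D4:**
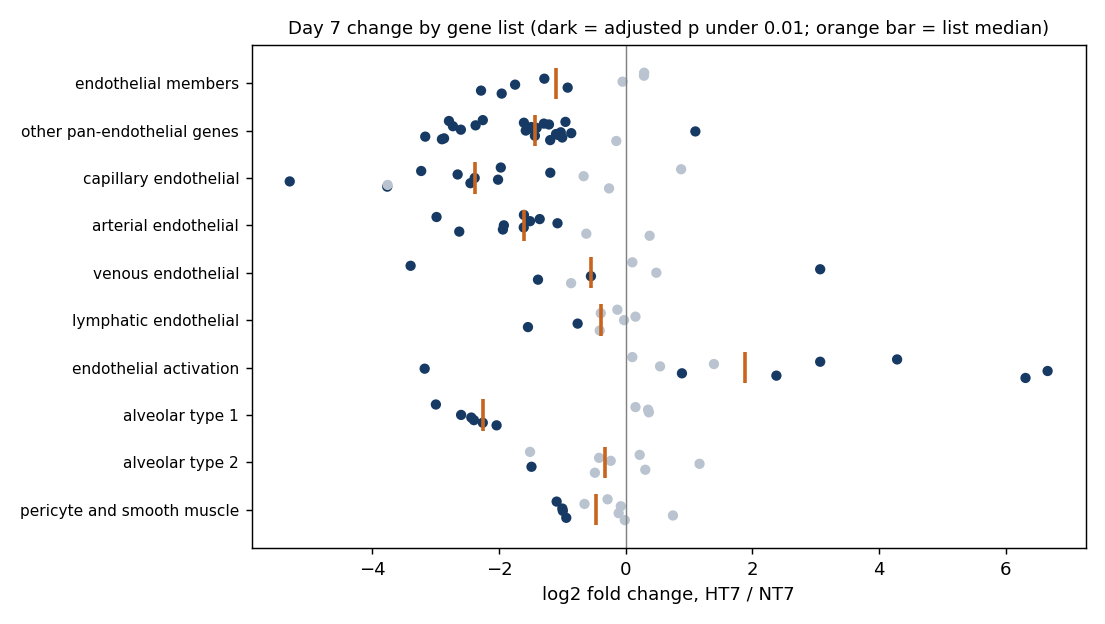
Day 7 log2 ratio of hyperoxia to normoxia for every tested gene of 10 lists, the 8 genes in the top row; dark points have an adjusted p under 0.01, and the orange bar marks the list median. The further pan-endothelial genes lie mainly below 0 with FLT1 above it, and the activation genes lie mainly above 0.

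The lists for vessel segments differed in their counts, read against the 16.9% of all tested genes called lower and 16.7% called higher on day 7. These lists share some genes with each other and with those above, so their counts are not separate. SELP, for example, stands in the venous, activation, platelet and VWF partner lists. In all, 9 of 13 capillary genes were called lower (median -2.38), from CD300LG at -5.30 to PLVAP, the diaphragm protein of fenestrae and caveolae, at -1.19. Of 11 arterial genes 9 were lower (median -1.61), from SEMA3G at -2.99 to GJA5 at -1.08. Of 7 venous genes 3 were lower, SLC6A2 lowest at -3.39, and 1, SELP, was higher. Of 7 lymphatic genes 2 were lower, FLT4 at -1.54 and LYVE1 at -0.76. Among 10 genes of endothelial activation 6 were higher and 1, NOS2 at -3.17, was lower on day 7, with LIF the highest at 6.66 (adjusted p = 1.94e-05).

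Markers of other lung cells were counted on day 7 against the same 16.9% called lower and 16.7% called higher. Of 9 alveolar type 1 markers 6 were lower (median -2.26), from RTKN2 at -3.00 to AGER at -2.04. Of 10 pericyte and smooth muscle markers 4 were lower, from RGS5 at -1.09 to CSPG4 at -0.94. Of 5 erythroid markers EPB42 (-1.71) and ALAS2 (-1.61) were lower, and of 8 fibroblast markers 3 were lower, TCF21 lowest at -1.56, and LUM was higher at 1.25. In the alveolar type 2 and ciliated lists 1 of 8 (NAPSA, -1.49) and 1 of 7 (DNAI1, -0.68) were lower, a share no larger than that over all tested genes. The part of these differences in the levels of the 8 genes was not tested.

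For the other genes, the tested gene with the most similar log2 CPM over the 17 samples was in no case one of the 8. For ROBO4 the nearest was P3H2 (Pearson r = 0.98), for CLEC14A LMBRD1 (r = 0.96) and for EMCN PLCL2 (r = 0.93). For S1PR1 it was ARRDC3 (r = 0.90), for VWF SAV1 (r = 0.89) and for PECAM1 PRKAR2B (r = 0.85). These correlations are across samples of all 6 groups, so shared group differences enter them, and they describe likeness only.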

How the data were processed

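The deposited values are raw counts per locus, made by the authors from stranded paired-end mRNA libraries and not normalized. The submitters' processing notes name FastQC, STAR 2.7.10a and the build OryCun2.0; the counting program is not given in the sources used here. A locus with several genes is listed once for each, so 13827 entries stand for 13313 loci. In R 4.3.3, edgeR 4.0.16 was applied to the counts with filterByExpr (13142 tested, 685 not), TMM factors and a quasi-likelihood fit of 6 group means over all 17 samples. The Benjamini-Hochberg adjustment covered all tested genes, and called genes had an adjusted p under 0.01 with no fold minimum. The study added a log2FC beyond 2, tried as an alternative. Log2FC used a prior count of 0.125, and likeness used log2 CPM with a prior count of 2. The fit was tested on simulated data. Permutation tests of ratios between genes were run and are not reported, since the genes had been grouped by the same samples. Alternatives were DESeq2 1.42.0, other normalizations, filters and thresholds, replicate blocks and leaving out each sample. Figures were drawn with matplotlib 3.10.9.

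The 8 genes and all lists were chosen with earlier results of these data known. All 8 are named. Of each list the lowest and highest called genes or direct partners are named, at most 4, apart from ADGRL4; 1 result is not reported here. The lists came from general knowledge and cover other pan-endothelial genes, partners of the 8 genes, vessel segments, activation and other lung cell types. For likeness, the tested genes with the highest Pearson r were found, and the first is named.

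Same-numbered samples deviated together with r = 0.166, 0.131 and 0.199 on day 3, where the block changed no call, and with 0.174, 0.109 and 0.0695 on day 7. The labels do not say what the numbers stand for. No sequence is shown, since no sequence of the build used was at hand.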

Additional observations from a re-analysis of the deposited data

Results flagged for a closer look

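For 4 genes the hyperoxia difference on day 7 was not the one on day 3, by a test of the difference between both days. The log2FC shifted by -3.00 for CLEC14A, -1.47 for CDH5, -1.30 for ERG and -1.01 for ROBO4. CLEC14A had the largest shift of the 8 genes, from above 0 on day 3 to below 0 on day 7. ROBO4 missed the threshold when any one of 5 samples was left out. Single outlying samples were not tested for in groups of 3 and 2.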

How the results depend on the processing

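On day 3 no gene of the 8 was called, and DESeq2 called 1 (VWF, adjusted p = 0.0024). On day 5 edgeR called 3, DESeq2 called 5 with ROBO4 and CLEC14A added, an adjusted p under 0.05 gave 5, the study's fold minimum gave 0 and a fit of that day's samples alone gave 0. With 1 entry per locus ROBO4 was added (adjusted p = 0.00921), which makes 4. The study's fold minimum left 1 gene, CLEC14A, on day 7, in the shift between days 7 and 3 and between HT7 and HT3. With a replicate block of pairs within each day 2 were called on day 5, VWF being lost (log2FC 1.05, adjusted p = 0.0298), and 5 on day 7; with a replicate block across all groups, 4 on day 5, ROBO4 included (adjusted p = 0.00411). What the numbers stand for is not given, and the 2 pairs of day 5 had r = 0.264 and 0.141.

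When samples were left out singly, the number called ran from 0 to 0 on day 3, 2 to 3 on day 5, 4 to 5 on day 7, 3 to 4 for the shift and 4 to 4 between HT7 and HT3. Changes of sign were limited to genes not called. The ranges were -0.38 to 0.22 for PECAM1 and -0.17 to 0.50 for VWF on day 7, -0.22 to 0.73 for S1PR1 on day 5, -0.16 to 0.20 for S1PR1 in the shift, -0.61 to 0.0648 for VWF and -0.0541 to 0.31 for S1PR1 between HT7 and HT3, and -0.0375 to 0.18 for PECAM1 and -0.0392 to 0.22 for S1PR1 between NT7 and NT3. The cause of these changes was not tested. Where 1 HT5 sample was left, it was assumed to vary like the other groups. The 5 lost genes stayed below normoxia on day 7 in every alternative run. Samples of a group differed by more than counting noise, with a chi-square per gene between 16.1 and 91.1 for pairs of samples.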

Other observations

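Within groups, S1PR1 and EMCN tended to deviate in opposite directions. With group means taken out, their log2 CPM had r = -0.85 over the 17 samples, a value picked after all pairs of the 8 genes were seen. HT7 replicate 1 had the highest S1PR1 of its group (385 CPM) and the lowest EMCN (26.6 CPM), together with the highest PECAM1 (779 CPM) and the lowest CLEC14A (19.9 CPM). In HT5 the sample with the higher S1PR1 (398 CPM) likewise had the lower EMCN (50.6 CPM). The summed level of the 8 genes was 2123 to 2380 CPM in NT7 and 1121 to 1740 CPM in HT7.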
